A study of Rattus norvegicus with 20 samples.

Results

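The extracellular matrix genes described here were 10 rat genes: the metalloprotease inhibitors Timp1, Timp2 and Timp3, the metalloproteases Mmp2, Mmp14 and Mmp16, and the matrix proteins Sparc, Fn1, Col1a1 and Col3a1. Their members were all probe sets that the platform's probe table annotates to one of these genes alone, which gave 23 of the 8740 probe sets tested, for 10 of the 4736 genes with a probe set. No probe set was shared between one of these genes and another gene. Timp1 had 2 probe sets, Timp2 1, Timp3 1, Mmp2 2, Mmp14 1, Mmp16 1, Sparc 4, Fn1 5, Col1a1 4 and Col3a1 2.

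The study read total RNA of rat dorsal root ganglia, the clusters of sensory nerve cell bodies beside the spinal cord, on 20 one-colour Affymetrix arrays. The ganglia were from the operated side. Chronic constriction injury (CCI) was sampled at 14 days (3 arrays) and 21 days (3 arrays). The Seltzer operation, which the labels describe as transection surgery of the sciatic nerve, was sampled at 14 days (2 arrays), 21 days (3 arrays) and 50 days (2 arrays). Sham operation was sampled at 14 days (2 arrays), 21 days (3 arrays) and 50 days (2 arrays). Strain, sex, age and the number of animals behind a sample were not in the labels used here. Whether the samples within a group are separate animals is not stated, and the p-values therefore describe spread between samples that may be technical.

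Collagens and fibronectin form the scaffold around cells, and the protein SPARC binds collagen and shapes how it is laid down. Matrix metalloproteases cut these proteins, and the tissue inhibitors of metalloproteases (TIMPs) bind the proteases and block them. In peripheral nerve and its ganglia, this balance is known for its part in the repair of sheath and connective tissue after injury, and TIMP1 is known as a secreted inhibitor that injury and inflammation induce.

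The 3 inhibitors are set beside each other throughout, so their promoters are shown here, as the 250 bases before the gene start. They were read from RefSeq's table of build GRCr8, which matched 4 of the 10 genes, and are printed 5′ to 3′ on the gene's strand, the minus strand in all 3. Capitals mark the letters TGAGTAA, a variant of the AP-1 motif that is described in the human and mouse Timp1 promoters.
Timp1, chrX:3771123-3771372: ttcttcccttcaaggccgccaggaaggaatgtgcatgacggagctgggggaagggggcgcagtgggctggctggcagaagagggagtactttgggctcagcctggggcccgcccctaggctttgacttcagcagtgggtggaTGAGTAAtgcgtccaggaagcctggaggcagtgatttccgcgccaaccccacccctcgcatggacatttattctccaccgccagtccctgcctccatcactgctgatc
Timp2, chr10:104089215-104089464: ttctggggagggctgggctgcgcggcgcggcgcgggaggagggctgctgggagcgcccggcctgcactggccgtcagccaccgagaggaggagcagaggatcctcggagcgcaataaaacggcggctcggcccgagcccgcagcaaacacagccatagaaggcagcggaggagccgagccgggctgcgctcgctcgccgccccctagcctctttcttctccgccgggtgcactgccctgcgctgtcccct
Timp3, chr7:19459559-19459808: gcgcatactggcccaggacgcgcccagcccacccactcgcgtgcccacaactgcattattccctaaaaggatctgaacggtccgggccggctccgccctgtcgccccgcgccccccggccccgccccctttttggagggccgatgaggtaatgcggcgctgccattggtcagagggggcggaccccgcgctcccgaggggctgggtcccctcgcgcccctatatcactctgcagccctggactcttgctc

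The motifs searched, on both strands, were TGANTCA and TGAGTAA, and no stretch of letters can match both. The first was in none of the 3 windows, and the second was in the Timp1 window alone, from 108 to 102 bases before the start. Among all 33469 windows of 250 bases in the table, 6.34% held TGANTCA and 2.38% held TGAGTAA. These matches describe letters and no binding was measured.

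Values are the deposited intensities, on a linear scale and with values below 0. An array's background level was set at the 95th percentile of its negative values, taken by their size, and a probe set is called above background where it exceeds that level. By that measure 5 of the 23 probe sets were above background on all 20 arrays, 11 on some and 7 on none. The 7 were one of Timp1 (rc_AI169327_g_at), the only ones of Timp3 and Mmp16, and 4 of the 5 of Fn1. Changes are differences in log2(intensity + 16) from limma, with p-values adjusted by the Benjamini-Hochberg method over all 8740 probe sets and a threshold of 0.05. Levels of different probe sets are not comparable with each other.

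Some arrays stood apart. The background level was 599 and 766 on the 2 Seltzer arrays of 50 days, 499 on CCI replicate 1 of 21 days, and 169 to 326 on the other 17. The GAPDH control's 3′ to middle ratio was 5.10 and 8.89 on those same Seltzer arrays, with 2.85 as the highest value of the other 18. The 2 sham arrays of 50 days read 2.84 and 2.85, and the highest ratio on the arrays of 14 and 21 days was 2.04. A beta-actin control of the 3′ end read 568 and 473 on those sham arrays and 983 or more on every other array. A GAPDH control probe set of the opposite strand read 402 to 424 on the CCI arrays, 54.9 to 85.1 on the Seltzer arrays and 90.2 to 133 on the sham arrays of 14 days, against 230 to 436 on the 21-day arrays. All 16 sensory neuron markers measured and all 9 Schwann cell markers measured were above background on at least 1 array, whereas the 5 endothelial markers measured (Pecam1, Vwf, Kdr, Flt1 and Icam2) were above it on none.

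After CCI, 4 of the 23 probe sets were higher than sham in the mean of 14 and 21 days and 0 were lower, where 2.29% of all probe sets were called (1.19% higher and 1.1% lower). The 4 were 1 of Timp1, 1 of Mmp16 and 2 of Sparc. After Seltzer surgery, 6 of the 23 passed in the mean of 14, 21 and 50 days, 4 of them higher (Timp1, Mmp16, Fn1 and Col1a1) and 2 lower (Mmp14 and Sparc), where 4.38% of all probe sets were called (1.92% higher and 2.46% lower). Between the models, 4 of the 23 differed in the mean of 14 and 21 days, with Timp1 and 2 probe sets of Sparc higher in CCI and 1 of Fn1 lower, where 0.927% of all were called (0.481% higher and 0.446% lower). With the 50-day arrays left out, 0 of the 23 passed for Seltzer. No share of all probe sets in that fit is set beside this count, so it is not read as particular to the 23. Over the settings run, the Seltzer mean gave 21 to 871 calls among all probe sets. The Seltzer effect differed over days for 4 of the 23, where 6.13% of all probe sets did. By day, 3 passed at 14 days after CCI (2.78% of all) and 1 at 21 days (0.927% of all). After Seltzer surgery 0 passed by limma at 14 days (2 at an unadjusted p under 0.05; 0.206% of all), 1 at 21 days (0.378% of all) and 7 at 50 days (15.9% of all). The CCI and Seltzer comparisons use the same sham arrays. Over sham arrays alone, 8 of the 23 differed between 14, 21 and 50 days, where 8.48% of all probe sets did.

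**Figure D1:**
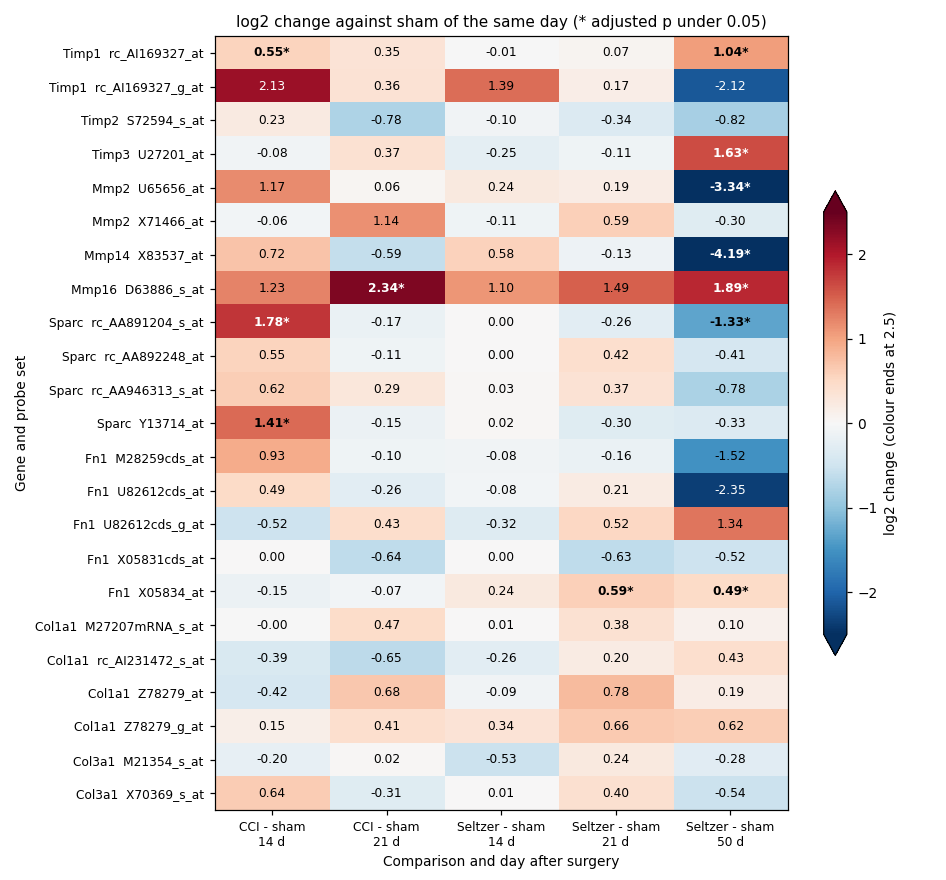
Each row is 1 of the 23 probe sets and each column 1 comparison with sham of the same day; cells give the log2 change, red where higher than sham and blue where lower, with colour ending at 2.5 and an asterisk where the adjusted p was under 0.05. The Sparc calls in the CCI columns stand at 14 days (1.78 and 1.41), and the Seltzer 50-day column holds 7 of the 8 Seltzer asterisks.

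Timp1 was higher on every CCI array than on any sham array of its day. Probe set rc_AI169327_at, above background on all 20 arrays, read 530.4, 537 and 592 on the CCI arrays and 352 and 395 on the sham arrays of 14 days. At 21 days it read 623, 472 and 575 on the CCI arrays, against 423, 424 and 443 on the sham arrays. The groups did not overlap at either day, and the sham arrays of 21 days lay close together. The group means were 553 ± 34.2 and 374 ± 30.6 at 14 days (SD, n = 3 and n = 2), a 1.48-fold difference. At 21 days they were 556 ± 77.2 and 430.4 ± 11.2 (SD, n = 3 each), a 1.29-fold difference. The mean change was 0.45 (SE 0.089, adjusted p = 0.01635 by limma), with 6 of 6 arrays above the sham mean. At 14 days alone the change was 0.55 (adjusted p = 0.04679), and under the replicate block (same-numbered arrays taken as pairs) the adjusted p was 0.07925. At 21 days alone it was 0.35 and did not pass. The mean call was lost in 4 of 22 alternative settings (adjusted p to 0.2273), among them without sham 14-day replicate 1 (adjusted p = 0.09895), and the 14-day call in 11 of 16, including each array left out in turn (adjusted p 0.09927 to 0.3548). With the 21-day sham arrays as control, the limma change at 14 days was 0.35 (adjusted p = 0.465). The mean change was then 0.35 (adjusted p = 0.2273). The 14-day CCI arrays lay 1.28-fold above the 21-day sham arrays, with ranges apart. They also differed from the 14-day sham arrays on the opposite-strand GAPDH control given above, whose part was not tested. In a tissue extract, more cells of a type and more RNA per cell cannot be told apart.

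The summed level of macrophage markers was above sham together with Timp1 after CCI, and after Seltzer surgery their sum was above sham at 14 and 21 days while Timp1 was not. Of 10 measured, 2 passed, both higher, after CCI in the mean of both days (2.39% of all genes), 7 were above background on no array (Aif1, Csf1r, Itgam, Fcgr2b, C1qb, C1qc and Ptprc), and the summed intensity was 2535 to 3290 on CCI arrays and 1508 to 1978 on sham arrays of 14 days. At 21 days the sum was 2649 to 3503 on CCI arrays, against 1209 to 1699.7 on sham arrays. The sum on Seltzer arrays was also above sham, at 2576 to 2910.3 at 14 days and 2054 to 2452 at 21 days, where Timp1 changed by -0.01 and 0.07. Their part in the Timp1 difference was not tested.

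After Seltzer surgery Timp1 was close to sham until 50 days. It read 345 and 398 on the Seltzer arrays and 352 and 395 on the sham arrays of 14 days. By 21 days it read 506, 369.5 and 492 on the Seltzer arrays, against 423, 424 and 443 on the sham arrays, and the groups overlapped at both days. At 50 days the Seltzer arrays read 1364 and 1257 and the sham arrays 644 and 614, a 2.08-fold difference with no overlap. The changes were -0.01, 0.07 and 1.04 at 14, 21 and 50 days, and only the last passed (SE 0.15, adjusted p = 0.0004264). The mean over days was 0.37 (adjusted p = 0.02088), with 5 of 7 arrays above sham, and without the 50-day arrays it was 0.03 (adjusted p = 1). The mean call was lost in 7 of 25 settings, among them without Seltzer 14-day replicate 2 (adjusted p = 0.07321), Seltzer 50-day replicate 1 (0.05292), sham 14-day replicate 1 (0.05842) and sham 50-day replicate 2 (0.05851). The 50-day call remained in all 14 settings run, with changes of 0.70 to 1.10. Each of those settings kept 1 or both of the same Seltzer arrays, so none could remove a fault that the arrays share. The background level and GAPDH ratio of the 50-day Seltzer arrays were high, as given above. The 5 endothelial markers, above background on no array, summed to 672 to 710 on those arrays and 232 to 284.5 on the sham arrays of 50 days. Skeletal muscle markers summed to 9277 to 11570 on the Seltzer arrays and 4514 to 4735 on the sham arrays of 50 days (8 of 23 called, all higher, where 18.1% of all genes were called), and macrophage markers to 1712 to 2075 on the Seltzer arrays and 1121 to 1419 on the sham arrays (2 of 10 called, both higher). The part of these in the 50-day values was not tested.

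CCI exceeded Seltzer for Timp1 by 0.42 in the mean of 14 and 21 days (SE 0.089, adjusted p = 0.04714), with ranges apart at 14 days (1.49-fold) and overlapping at 21 days (1.22-fold). This call was lost in 12 of 21 settings, including the replicate block (adjusted p = 0.06762) and 7 of the arrays left out in turn, with changes of 0.35 to 0.48 throughout. The 14-day CCI arrays also stood apart from the 14-day Seltzer arrays on the opposite-strand GAPDH control, and its part was not tested. Timp1 also changed over time in sham ganglia, by 0.20 at 21 days and 0.73 at 50 days relative to 14 days (limma F test, adjusted p = 0.0135). The 50-day sham arrays stood apart on control probe sets too, as given above, and the part of this was not tested. By mean intensity the groups ran in the order Seltzer 14 days (372), sham 14 days (374), sham 21 days (430.4), Seltzer 21 days (456), CCI 14 days (553), CCI 21 days (556), sham 50 days (629) and Seltzer 50 days (1311). The ranges of neighbours in this order overlapped, except between sham 21 days and sham 14 days, between CCI 14 days and Seltzer 21 days, and between Seltzer 50 days and sham 50 days.

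The other Timp1 probe set, rc_AI169327_g_at, was above background on no array. It read 159, 154 and 158 on the CCI arrays, 82.1 and 93.0 on the Seltzer arrays and 11.0 and 41.7 on the sham arrays of 14 days. At 21 days the CCI arrays spread from -107 to 155, and the groups overlapped. None of its changes passed.

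Timp2, an inhibitor that also takes part in activating pro-MMP2 at the cell surface, did not differ from sham at any day by the test. Its probe set S72594_s_at read 958, 896 and 976 on the CCI arrays, 871 and 646 on the Seltzer arrays and 798 and 808 on the sham arrays of 14 days. The readings at 21 days were 316, 939.9 and 855 on the CCI arrays, 841, 886 and 884 on the Seltzer arrays and 1334, 1007 and 997 on the sham arrays. The CCI arrays lay above sham at 14 days and below it at 21 days, where replicate 1, the array with the high background, was not above background. At 50 days it read 337 and 258 on the Seltzer arrays, below their background, and 515 and 557 on the sham arrays, so no fold is given. The mean change was -0.28 for CCI (SE 0.23, adjusted p = 0.7855) and -0.42 for Seltzer (SE 0.20, adjusted p = 0.3163).

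Timp3, which binds to the matrix itself, was above background on no array. Its probe set U27201_at read 60.4 to 215 on all 16 arrays of 14 and 21 days. At 50 days it read 310.0 and 392 on the Seltzer arrays, against 99.0 and 105 on the sham arrays, a change of 1.63 (SE 0.35, adjusted p = 0.008355). All 4 values lay below the background of their arrays, so no fold is given, and without Seltzer 50-day replicate 2 the adjusted p was 0.05519. The mean change was 0.15 for CCI (adjusted p = 0.9231) and 0.42 for Seltzer (adjusted p = 0.2871).

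Timp1 was set against the other inhibitors by exact two-sided permutation of the surgery labels within days, with p-values adjusted over the 4 such tests. After CCI its change exceeded that of Timp2 by 0.73 (200 relabellings, adjusted p = 0.02), by 0.32 at 14 days and 1.13 at 21 days. Without CCI 21-day replicate 1, where Timp2 was low, the difference was 0.44 (adjusted p = 0.04). The call was lost in 8 of 11 fits with 1 array left out, namely each of the 14-day CCI, the 14-day sham and the 21-day sham arrays (adjusted p 0.05 to 0.12). Without a 14-day array, too few relabellings remain for an adjusted p under 0.05, given the p-values of the other tests. Those losses were therefore fixed in advance and do not measure how stable the call is. The losses without a 21-day sham array were not fixed in this way. Timp3 was above background on no array, which limits what the values against it show. After CCI the difference from Timp3 was 0.30 (adjusted p = 0.28), with 0.63 at 14 days and -0.02 at 21 days. After Seltzer surgery the difference from Timp2 was 0.79 (720 relabellings, adjusted p = 0.0833), of which 50 days gave 1.86, and the difference from Timp3 was -0.06 (adjusted p = 0.7889). Without the 50-day arrays these 2 were 0.25 and 0.21.

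**Figure D2:**
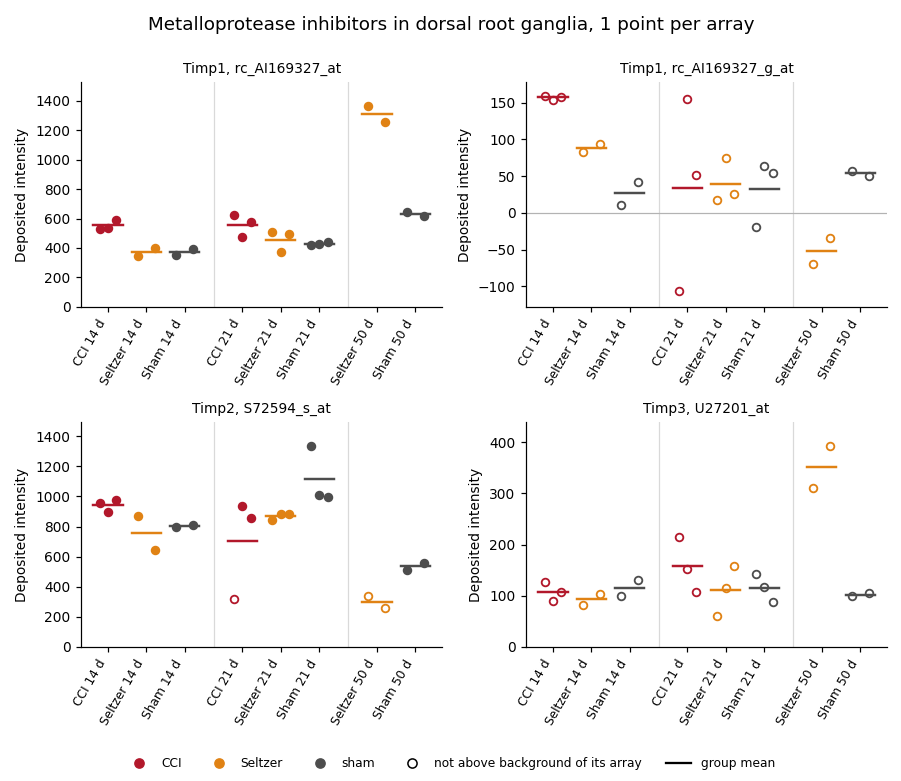
Deposited intensity of the inhibitor probe sets on each array, grouped by surgery and day, with filled points above the background of their array, hollow points not above it, and a line at the group mean. For Timp1 rc_AI169327_at the CCI points lie above the sham points of their day and the 2 Seltzer 50-day points, 1364 and 1257, lie above all others; all Timp3 points are hollow.

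By the rule of highest correlation with Timp1 rc_AI169327_at among the 1615 probe sets that were annotated to 1 gene and above background on at least 6 arrays, the 5 most like genes were Ier3, Anpep, Tmem255b, Nr2f6 and Lep. Pearson's r over the 20 arrays was 0.971 for Ier3 (Spearman's rho 0.92), an immediate early response gene, 0.915 for Anpep, 0.912 for Tmem255b, 0.905 for Nr2f6 and 0.904 for Lep. The Seltzer 50-day arrays lay far from the rest for these genes, so r is given again over the 16 arrays of 14 and 21 days. It was then 0.86 for Ier3 (rho 0.847), 0.655 for Lep, 0.572 for Nr2f6, 0.546 for Tmem255b and 0.535 for Anpep. Ier3 averaged 425 on CCI arrays, 303 on Seltzer arrays and 312 on sham arrays of 14 days, and 441, 381 and 368 in the same order at 21 days. The arrays share their scaling and their surgery groups, and these values describe likeness only.

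Among the metalloproteases, no probe set that was above background on any array passed after CCI. Mmp2, a gelatinase, has 2 probe sets. U65656_at read 619.5, 407 and 461 on the CCI arrays, 226 and 272 on the Seltzer arrays and 221 and 196 on the sham arrays of 14 days. The CCI arrays lay above the others, at least 2.07-fold above sham, whose arrays were not above background, but the change of 1.17 did not pass. Against the sham arrays of 21 days, the 14-day CCI arrays were 1.16-fold higher and overlapped them. At 21 days it read 315, 655 and 409 on the CCI arrays, 445, 454 and 556 on the Seltzer arrays and 364, 552 and 373 on the sham arrays, with overlap. The mean CCI change was 0.62 (SE 0.41, adjusted p = 0.6835).

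At 50 days Mmp2 U65656_at read -156 and 113 on the Seltzer arrays and 459 and 429.5 on the sham arrays. The change was -3.34 (SE 0.66, adjusted p = 0.004813), but the sham values lie under the background level of the Seltzer arrays, so no fold can be given. The change was -4.85 without Seltzer replicate 2 and -1.84 without Seltzer replicate 1, and fitting only the groups compared ended the call (adjusted p = 0.293). The other probe set, X71466_at, read 199.5 and 543 on the Seltzer arrays and 438 and 385 on the sham arrays of 50 days. It did not show the difference, and no comparison of it passed (mean change 0.54 for CCI and 0.06 for Seltzer). At 14 days X71466_at read 358, 275 and 225 on the CCI arrays and 286 and 302 on the sham arrays. CCI was 1.05-fold below sham there, with overlap, unlike on U65656_at. At 21 days X71466_at read 407, 404 and 313 on the CCI arrays and 46.3, 314 and 249 on the sham arrays. CCI was then 2.42-fold above sham, also with overlap.

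Mmp14, a membrane-anchored protease that activates pro-MMP2, lay on opposite sides of sham at the 2 days after CCI, and neither change passed. X83537_at read 314, 355 and 316 on the CCI arrays, 307 and 289 on the Seltzer arrays and 185 and 202 on the sham arrays of 14 days. By 21 days it read 189.7, 299.7 and 316 on the CCI arrays, 300.1, 457 and 362 on the Seltzer arrays and 448, 388 and 379.8 on the sham arrays. The CCI arrays lay at least 1.39-fold above sham at 14 days (limma change 0.72, adjusted p = 0.2591). At 21 days they lay 1.54-fold below it (change -0.59, adjusted p = 0.341), and CCI replicate 1 was not above background. The groups did not overlap at either day, and the mean change was 0.06 (SE 0.18, adjusted p = 1). Sham itself differed, at least 1.71-fold higher at 21 than at 14 days, without overlap. Against the 21-day sham arrays, the 14-day CCI arrays were 1.23-fold lower, with ranges apart. At 50 days it read -163 and -47.9 on the Seltzer arrays and 399 and 189.7 on the sham arrays, a change of -4.19 (SE 0.29, adjusted p = 9.726e-07). No fold is given, since the sham values lie under the Seltzer arrays' background. The call ended with values below 200 set to 200 (change -0.50, adjusted p = 0.4143) and when the fit held no arrays but those 4 (adjusted p = 0.05577). The Seltzer mean of -1.25 (adjusted p = 0.0004364) became 0.23 (adjusted p = 1) without the 50-day arrays.

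Mmp16, another membrane-anchored protease, was above background on none of the 20 arrays, yet its surgery and sham values did not overlap at any day. D63886_s_at read 67.6, 53.5 and 60.8 on the CCI arrays, 74.8 and 37.4 on the Seltzer arrays and 13.2 and 20.2 on the sham arrays of 14 days. The readings at 21 days were 168, 75.7 and 81.5 on the CCI arrays, 82.3, 30.3 and 45.2 on the Seltzer arrays and -5.88, 8.87 and 15.8 on the sham arrays. At 50 days it read 46.0 and 40.5 on the Seltzer arrays and -13.6 and -5.79 on the sham arrays. All 6 CCI and all 7 Seltzer arrays were above the sham mean of their day. The mean change was 1.79 for CCI (SE 0.25, adjusted p = 0.001516; 1.23 at 14 days, 2.34 at 21 days with adjusted p = 0.003082) and 1.49 for Seltzer (SE 0.22, adjusted p = 0.001823). Both rest on values under background: no fold is given, the changes are 0 when values below 200 are set to 200, and without the 50-day arrays the Seltzer change was 1.29 (adjusted p = 0.145).

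**Figure D3:**
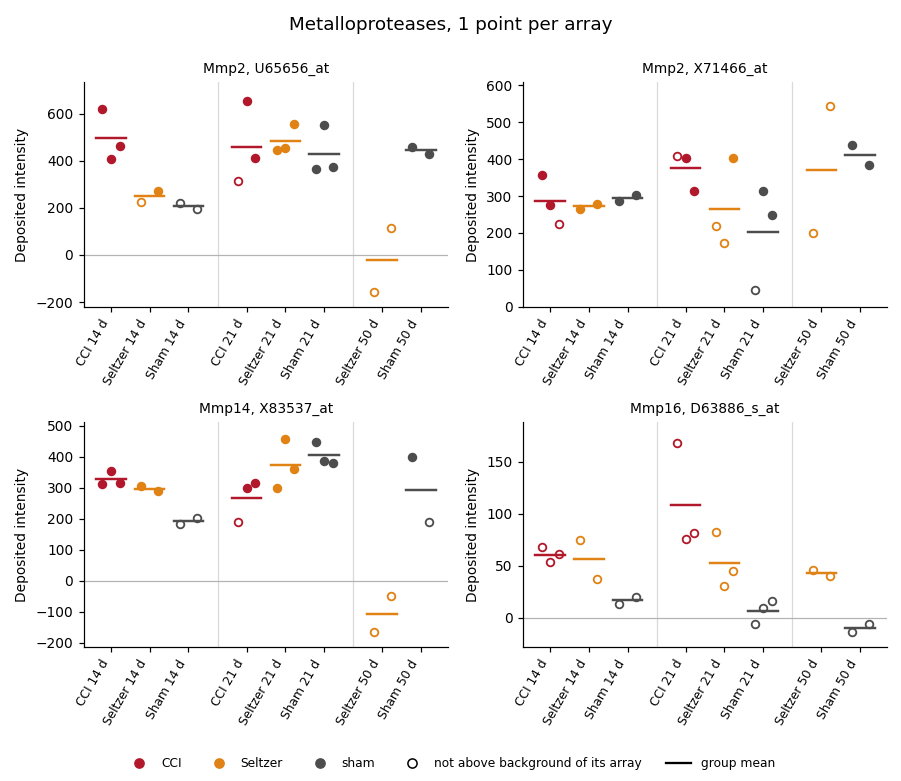
Deposited intensity of the 4 metalloprotease probe sets on each array, by surgery and day, with hollow points not above the background of their array and a line at the group mean. Every Mmp16 point is hollow, with the surgery groups above sham at each day, and the Seltzer 50-day points of Mmp2 U65656_at and Mmp14 reach values below 0.

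Sparc gave the largest folds against sham among these genes where both groups were above background, and they stood at 14 days. On rc_AA891204_s_at the CCI arrays read 963, 945 and 849, the Seltzer arrays 287 and 228 and the sham arrays 247 and 263. On Y13714_at the CCI arrays read 2485, 2438 and 2613, the Seltzer arrays 971 and 929.6 and the sham arrays 901 and 975. In both, CCI lay far above the other groups of that day, while Seltzer and sham overlapped. CCI was 3.60-fold above sham on the first (change 1.78, SE 0.14, adjusted p = 5.591e-06) and 2.68-fold on the second (1.41, SE 0.13, adjusted p = 2.007e-05). Against Seltzer at 14 days the changes were 1.78 (adjusted p = 7.453e-06) and 1.39 (adjusted p = 2.66e-05), in a comparison chosen after the data were seen and where 1.75% of all probe sets were called.

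At 21 days the difference was not found. On rc_AA891204_s_at the arrays read 547, 665 and 595 for CCI, 519.9, 659.8 and 520.2 for Seltzer and 686, 774 and 587 for sham. On Y13714_at they read 1973, 2138 and 1856 for CCI, 1922, 1973 and 1509 for Seltzer and 2501, 2064 and 2064 for sham. The CCI changes were -0.17 and -0.15, and the CCI effect at 21 days differed from that at 14 days by -1.95 (SE 0.19, adjusted p = 5.126e-05) and -1.55 (SE 0.17, adjusted p = 0.0001598), where 1.8% of all probe sets were called. The sham arrays themselves differed over days, by 1.36 and 1.22 at 21 days relative to 14 days (F test adjusted p = 7.711e-06 and 3.166e-05). The 14-day Seltzer and sham arrays thus lay below every array of 21 days on these probe sets, and the 14-day CCI arrays did not.

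With the 21-day sham arrays as the control of both CCI groups, the limma changes at 14 days on these 2 probe sets were 0.43 (adjusted p = 0.2736) and 0.19 (adjusted p = 0.83). Their mean changes were then 0.13 (adjusted p = 0.7744) and 0.02 (adjusted p = 1). With sham of the same day the mean changes were 0.81 (adjusted p = 0.0003323) and 0.63 (adjusted p = 0.001). Centring each array on its median left 0.61 for the mean on Y13714_at (adjusted p = 0.06519). The opposite-strand GAPDH control divided the 14-day arrays the same way, with the CCI arrays at the level of the 21-day arrays and the Seltzer and sham arrays below it. Skeletal muscle markers also moved with the 14-day CCI arrays: the summed intensity of the 23 measured was 16733 to 18497 on the CCI arrays, 11480 to 11520.4 on the Seltzer arrays and 8757 to 10204 on the sham arrays of 14 days. At 21 days it was 4398 to 6234, 7397 to 7580.4 and 9548 to 10646 in the same order. Of these markers, 2 were higher at 14 days (2.49% of all genes called) and 4 lower at 21 days (1.06% of all genes) after CCI, and 6 were above background on no array. The part of these in the Sparc difference was not tested.

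The other Sparc probe sets showed a smaller difference of the same sign at 14 days. On rc_AA892248_at the 14-day arrays read 1439, 1409.8 and 1384 for CCI, 1051 and 877 for Seltzer and 856 and 1077 for sham. On rc_AA946313_s_at they read 3559, 3242 and 3759 for CCI, 2549.6 and 2119.9 for Seltzer and 3178 and 1632 for sham. CCI lay above the other groups in both, 1.47-fold and 1.54-fold above sham, but the changes of 0.55 and 0.62 did not pass. Sham of 21 days lay 1.41-fold above sham of 14 days on rc_AA892248_at, without overlap, and overlapped it on rc_AA946313_s_at (1.01-fold). Against the 21-day sham arrays, the 14-day CCI arrays were 1.04-fold higher on rc_AA892248_at and overlapped them. On rc_AA946313_s_at they were 1.53-fold higher, with ranges apart. The 4 probe sets of 1 gene therefore disagree in size, from 1.47-fold to 3.60-fold above sham after CCI at 14 days. For Seltzer at 21 days they also disagreed in sign. There Seltzer lay 1.34-fold above sham on rc_AA892248_at and 1.23-fold below it on Y13714_at, without overlap on either. Neither change passed.

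At 50 days rc_AA891204_s_at read 70.6 and 58.9 on the Seltzer arrays and 186 on both sham arrays. The change was -1.33 (SE 0.15, adjusted p = 9.662e-05), with all 4 values below background, so no fold is given, and it was 0 with values below 200 set to 200 (adjusted p = 1). The Seltzer mean of -0.53 on this probe set (adjusted p = 0.002681) was -0.13 without the 50-day arrays (adjusted p = 1). Y13714_at read 815 and 665 on the Seltzer arrays and 988 and 880.5 on the sham arrays of 50 days, and its change of -0.33 did not pass. On rc_AA946313_s_at, above background on all 4 arrays, Seltzer (1046 to 1076) was 1.73-fold below sham (1781 to 1894), without overlap. Seltzer was at least 1.10-fold below sham on rc_AA892248_at, also without overlap. Neither of these changes passed.

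**Figure D4:**
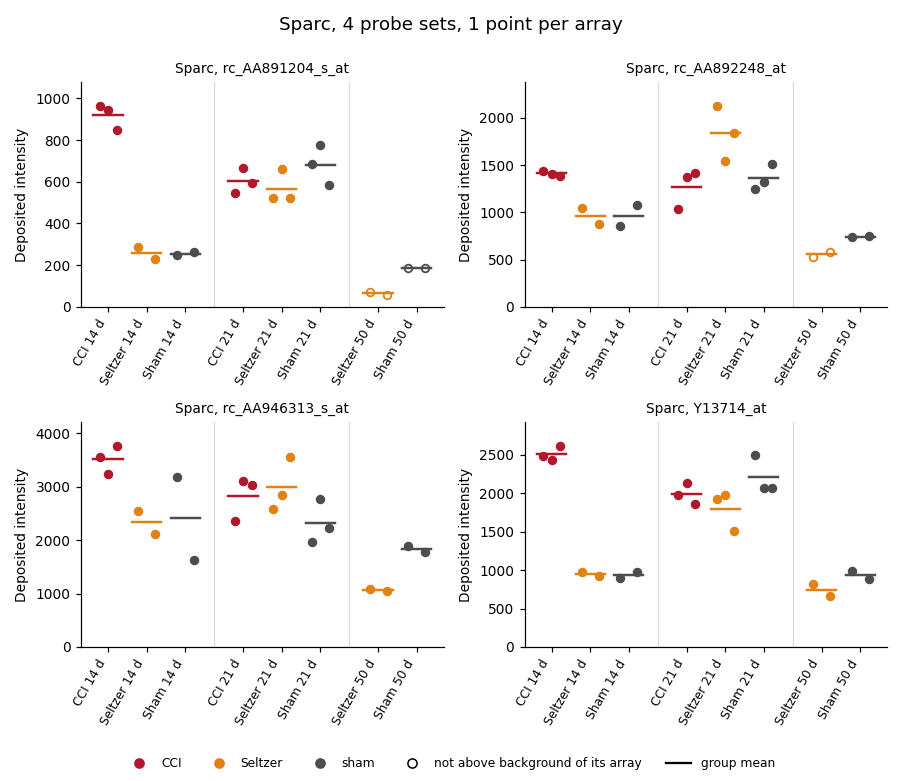
Deposited intensity of the 4 Sparc probe sets on each array, by surgery and day, with hollow points not above the background of their array and a line at the group mean. On rc_AA891204_s_at and Y13714_at the 3 CCI arrays of 14 days stand above the Seltzer and sham arrays of that day, which lie below every 21-day array.

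Fibronectin (Fn1) differed after Seltzer surgery rather than after CCI, on the 1 of its 5 probe sets that was above background. X05834_at read 473, 415 and 440.4 on the CCI arrays, 599.9 and 576 on the Seltzer arrays and 465 and 525 on the sham arrays of 14 days. At 21 days it read 472, 343 and 337 on the CCI arrays, 603, 651 and 580.3 on the Seltzer arrays and 437, 389 and 377 on the sham arrays. Seltzer lay above both other groups at both days without overlap, and CCI overlapped sham. At 50 days it read 429.6 and 389 on the Seltzer arrays, below their background, and 278 and 296 on the sham arrays.

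The Seltzer mean change was 0.44 (SE 0.074, adjusted p = 0.004251), with 7 of 7 arrays above sham, and 0.42 without the 50-day arrays (adjusted p = 0.145). At 21 days Fn1 was 1.53-fold above sham (change 0.59, SE 0.11, adjusted p = 0.04275), the 1 of these probe sets called at that day. With the replicate block the adjusted p was 0.05141, and each array left out in turn ended the call (adjusted p 0.05273 to 0.1457). At 50 days the change of 0.49 (adjusted p = 0.02862) was 0.06 after quantile normalization (adjusted p = 0.7845), and ended with any of the 4 arrays left out (adjusted p 0.05574 to 0.1574). CCI was below Seltzer by 0.53 on the log2 scale in the mean of 14 and 21 days (change -0.53, SE 0.083, adjusted p = 0.005811), 1.33-fold at 14 days and 1.61-fold at 21 days, and this call held in 19 of 21 settings. CCI against sham was -0.11 (SE 0.083, adjusted p = 0.7399). The other 4 probe sets ranged from -122 to 198 and none of their changes passed.

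The collagens, the main fibre proteins of connective tissue, were mostly not distinguishable from sham. Col1a1 M27207mRNA_s_at read 5128, 4856 and 4725 on the CCI arrays, 4893 and 5011 on the Seltzer arrays and 6174 and 3901 on the sham arrays of 14 days, with the other groups between the sham arrays. By 21 days it read 7263, 4811 and 5348 on the CCI arrays, 5628, 5136 and 5415 on the Seltzer arrays and 3969.7, 3985 and 4471 on the sham arrays. Both surgeries lay above sham there, but no change passed (CCI mean 0.23, adjusted p = 0.5424).

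Z78279_g_at, also of Col1a1, was the 1 collagen probe set called against sham. At 14 days it read 2423, 2336 and 2395 on the CCI arrays, 2856 and 2579 on the Seltzer arrays and 2209.8 and 2074 on the sham arrays. The readings at 21 days were 1774, 1884 and 1834 on the CCI arrays, 1608, 2422 and 2646 on the Seltzer arrays and 957, 1461 and 1845 on the sham arrays. At 50 days it read 2252 and 1879 on the Seltzer arrays, against 1365 and 1294 on the sham arrays. Seltzer lay above sham at 14 and 50 days and overlapped it at 21 days. The Seltzer mean change was 0.54 (SE 0.14, adjusted p = 0.04292; 7 of 7 arrays above sham), a call lost in 14 of 25 settings, 10 of which left out 1 array (adjusted p 0.06304 to 0.1061).

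The 4 Col1a1 probe sets disagreed in sign after CCI. Their mean changes were 0.23, -0.52, 0.13 and 0.28, none past the threshold. The largest, on rc_AI231472_s_at, came from 882, 906 and 932 on the CCI arrays and 1134 and 1249.6 on the sham arrays of 14 days, and from 613, 641 and 619.7 on the CCI arrays and 1371, 805 and 876 on the sham arrays of 21 days. All 6 CCI arrays lay below every sham array of their day (adjusted p = 0.05402).

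None of the Col3a1 changes against sham passed, though some groups did not overlap. X70369_s_at read 1646, 1593 and 1562 on the CCI arrays, 985 and 1080.3 on the Seltzer arrays and 1236 and 845 on the sham arrays of 14 days. CCI lay above the other groups there, 1.57-fold above sham, and the change of 0.64 did not pass. At 21 days it read 718, 1217 and 1167 on the CCI arrays, 1777, 1466 and 1729.8 on the Seltzer arrays and 1311, 1200.1 and 1241 on the sham arrays, with Seltzer 1.32-fold above sham and CCI overlapping it. M21354_s_at read 441, 402 and 424 on the CCI arrays, 317 and 349 on the Seltzer arrays and 446 and 535 on the sham arrays of 14 days. Both surgeries lay below sham there, CCI by 1.16-fold and Seltzer by 1.47-fold, and overlapped it at 21 days; the mean changes were -0.09 for CCI and -0.19 for Seltzer.

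In sham ganglia 3 of the 6 collagen probe sets differed over days, each with its lowest level at 50 days. Relative to 14 days, sham arrays of 50 days were at -1.45 for Col1a1 rc_AI231472_s_at (F test adjusted p = 0.0009813), -2.26 for Col3a1 M21354_s_at (adjusted p = 4.617e-05), which was then not above background, and -1.23 for Col3a1 X70369_s_at (adjusted p = 0.001473). On X70369_s_at the Seltzer arrays read 242 and 341 at 50 days, not above background, and the sham arrays 386 and 469.7. Fn1 X05834_at also differed over days in sham, with a change of -0.75 at 50 days (adjusted p = 0.009157). Day cannot be told apart from anything else that differed between the arrays of those days.

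**Figure D5:**
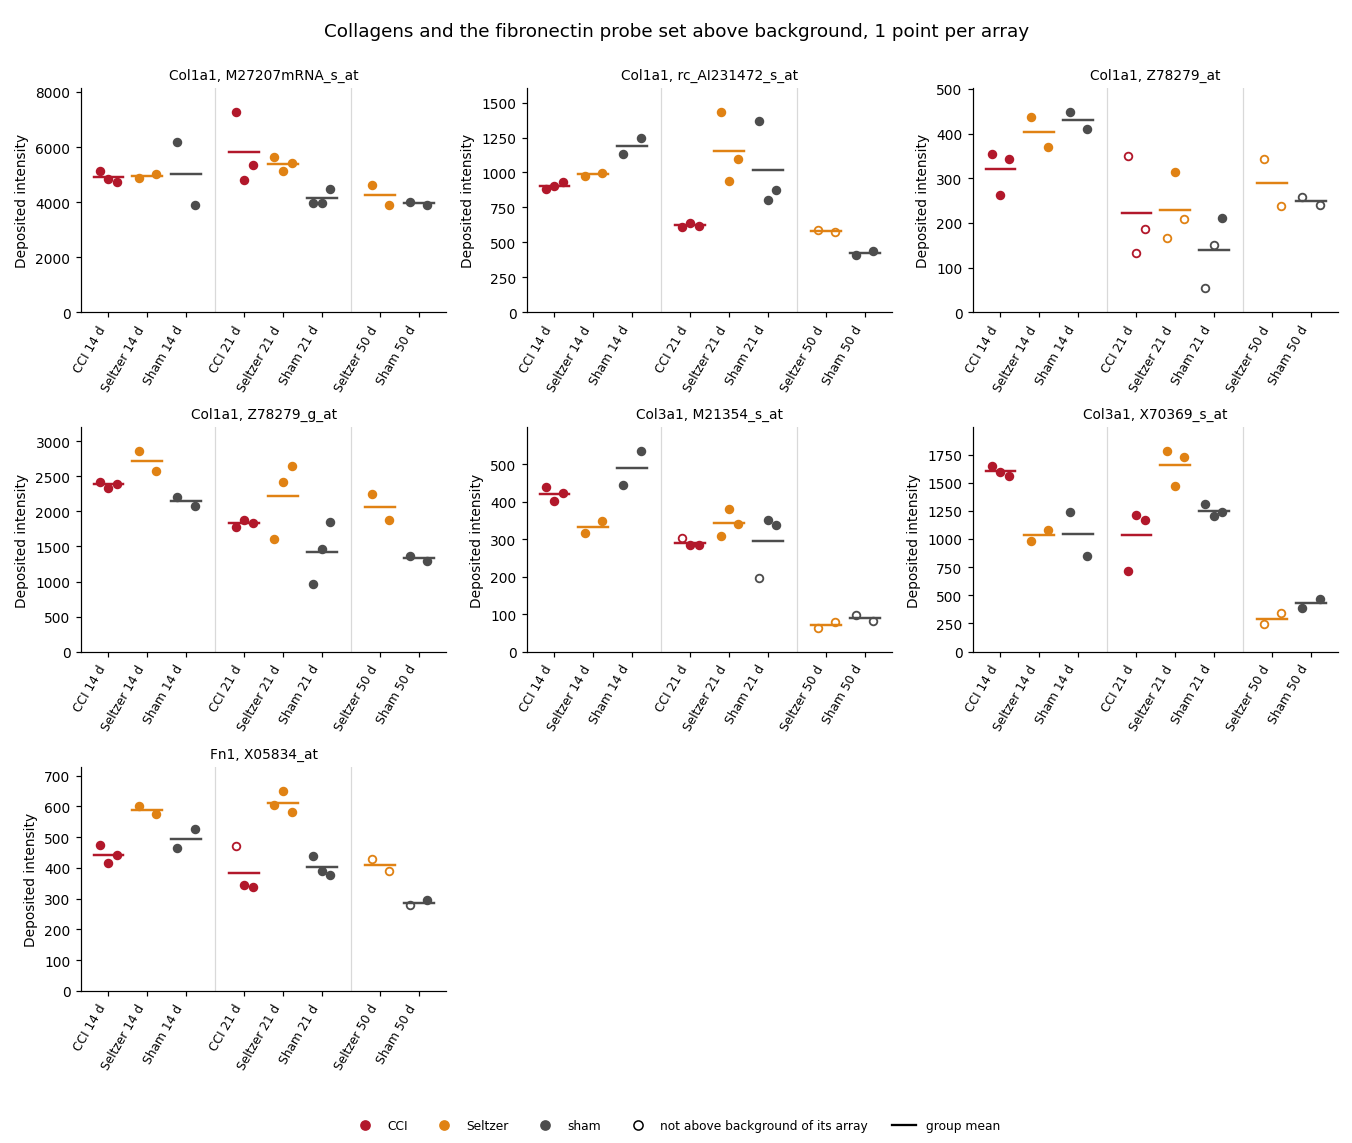
Deposited intensity of collagen and fibronectin probe sets on each array, by surgery and day, with hollow points not above the background of their array and a line at the group mean. On Fn1 X05834_at the Seltzer arrays lie above CCI and sham at 14 and 21 days; the Col3a1 points of 50 days lie below those of 14 and 21 days.

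Connective tissue markers other than these genes were compared, since fibroblasts are known makers of collagen and fibronectin. Of 17 markers in all, 15 without Col1a1 and Col3a1, 0 passed by limma after CCI or after Seltzer surgery in the means over days (3 and 3 at an unadjusted p under 0.05), where 2.39% and 4.77% of all genes were called. Their summed intensity at 14 days was 14634 to 17500.3 on CCI arrays, 14273 to 15567 on Seltzer arrays and 11435 to 14282 on sham arrays. At 21 days it was 12090.5 to 15768, 15494 to 34040 and 13711 to 34485 in the same order, with overlap. At 50 days it was lower on Seltzer arrays (9906 to 11678) than on sham arrays (14272 to 15906). The sum weighs the bright markers most, and 3 of the 15 were above background on the Seltzer arrays and 4 to 5 on the sham arrays. By limma 2 of the 15 passed at 50 days, both higher than sham, where 18.1% of all genes were called. The median change over the 17 was 0.105, against 0.018 over all genes. Of the 15, 6 were above background on no array, and Thy1 is also on the sensory neuron list. With the median over each gene's probe sets in place of the brightest, 0 passed after CCI and 1 after Seltzer.

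Of 108 genes in a wider list of matrix and proteolysis genes, 81 were measured, 71 of them beyond the 10 described. After CCI, 2 of the 81 were higher in the mean of both days (Timp1 and Mmp16) and 0 lower, where 2.39% of all genes were called. Of the 71, 0 were called by limma (9 at an unadjusted p under 0.05). The median change over the 81 was 0.08, against 0 over all genes. At 21 days alone Tnr, a matrix glycoprotein of nervous tissue, passed with a change of 1.64 (adjusted p = 0.04208), from 9.33 to 78.1 on CCI arrays against -22.4 to -3.79 on sham arrays, all below background. Over all genes 1.06% were called at that day. After Seltzer surgery 5 of the 81 were higher and 2 lower in the mean over days, where 4.77% of all genes were called. The median change was 0.10 against 0.05 over all genes, and 3 of the 71 passed.

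Without the 50-day arrays none of those 3 passed: the change was 0.65 for Mmp9 (adjusted p = 0.9811), 0.56 for Mmp12 (adjusted p = 1) and 0.01 for Ctsb (adjusted p = 1). Mmp9, a gelatinase, changed by 1.16 in the mean (adjusted p = 0.01254) and read 111 to 185 on the Seltzer arrays against 14.8 to 24.7 on the sham arrays of 50 days, all below background. Mmp12, the macrophage metalloelastase, changed by 1.14 (adjusted p = 0.01878) and read 212 to 229.6 on the Seltzer arrays against 32.2 to 32.8 on the sham arrays of 50 days, also below background. Ctsb, the lysosomal protease cathepsin B, changed by -0.79 (adjusted p = 0.0003106). It read 377 to 396 on the Seltzer arrays, not above background, and 2048 to 2156 on the sham arrays of 50 days, and its ranges overlapped sham at 21 days. In the comparison of CCI with Seltzer, 0 of the 71 passed by limma (8 at an unadjusted p under 0.05), where 0.866% of all genes were called.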

How the data were processed

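Total RNA of rat dorsal root ganglia was read on 20 arrays, 1 column each; the authors deposited intensity, linear, with 28.95% of values below 0. After trimming 2% at each end, every array's mean was 150 (150.15 to 150.24), so the arrays had been brought to 1 trimmed mean. Software and any background step were not given in the sources used here. Of 8799 probe sets, 59 array controls were left out and 8740 were tested.

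Tests ran on log2(intensity + 16), with negative intensities taken as 0. Group means were fitted over all 20 arrays with limma 3.58.1 (lmFit and eBayes, R 4.3.3, statmod 1.5.0), with 1 shared estimate of the spread, two-sided tests and Benjamini-Hochberg adjustment over all probe sets. The number added limits the change of dim probe sets, and the number of arrays limits the precision. Folds are ratios of geometric mean intensities. If no array of the dimmer group was above background, a fold is a lower bound, written "at least", against the background of that group's arrays, and none is given where the bound was under 1 or both groups were below background. Python 3.11.15 and matplotlib 3.10.9 served for the plots. The fit was tested on simulated data.

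Genes were named by the platform's probe table, with symbols brought up to date through Entrez ID. Every probe set of the 10 genes is named. Of the wider list, genes past the threshold in a mean contrast are named, up to 8 each by size of change; Tnr, called at 21 days alone, was named after its values were seen. The genes most like Timp1 are the 5 with the highest Pearson's r. List genes were represented by their brightest probe set. The genes, lists and tests were chosen with earlier results of these data known.

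Replicate numbers are shared between groups. A lot batch equal to the replicate number is noted in the labels of 3 CCI samples (14-day replicates 2 and 3, 21-day replicate 1) and in no other, so no 2 samples are tied to 1 lot. The deviations of the same-numbered Seltzer and sham arrays of 21 days correlated at 0.299, 0.226 and 0.110 over probe sets, all over 0.1, and no other pair of groups with 3 shared numbers did so throughout; the fit with the replicate number as a block is therefore an alternative whose value is given where it changes a call. Other alternatives changed the number added, the scaling, the filter, the variance model, the weights, the control arrays and the arrays in the fit.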

Additional observations from a re-analysis of the deposited data

Results flagged for a closer look

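For 5 probe sets the effect of surgery differed between days by the test of the difference itself, for 1 of them (Sparc rc_AA891204_s_at) after both surgeries.

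The CCI effect on Sparc differed between days. At 21 minus 14 days it was -1.95 on rc_AA891204_s_at (SE 0.19, limma adjusted p = 5.126e-05) and -1.55 on Y13714_at (SE 0.17, adjusted p = 0.0001598), and both calls remained in all 21 alternative settings run, from -2.24 to -1.78 and from -1.84 to -1.46. The sham arrays of the 2 days differed on these probe sets by 1.36 and 1.22, and the 14-day sham arrays also read lower on the opposite-strand GAPDH control (90.2 to 133) than the 14-day CCI arrays did (402 to 424). The part of either in the Sparc difference was not tested.

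The Seltzer effect differed over days for 4 of the 23 probe sets (limma F test), where 6.13% of all probe sets did. At 50 minus 14 days it was 1.05 for Timp1 rc_AI169327_at (adjusted p = 0.00969), -3.58 for Mmp2 U65656_at (adjusted p = 0.04054), -4.77 for Mmp14 X83537_at (adjusted p = 2.01e-05) and -1.33 for Sparc rc_AA891204_s_at (adjusted p = 0.004458). Of these 4, only Timp1 was above background on the 2 Seltzer arrays of 50 days. The background level of those arrays (599 and 766) and their GAPDH ratios (5.10 and 8.89) moved with these values, and their part was not tested.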

How the results depend on the processing

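Over all probe sets the number called also moved with the setting. It ran from 58 to 784 for CCI at 14 days and from 442 to 1748 for sham over days. No share in the same setting is set beside the counts below. They are therefore not read as particular to these 23 probe sets. Counts of these 23 probe sets called depended on the setting as follows. Median centring of arrays gave 2 for the CCI mean (4 in the reported fit), 3 for the Seltzer mean (6) and 0 for Seltzer at 21 days (1). With the 21-day sham arrays as control the CCI mean had 1 and CCI at 14 days 1 (3). Leaving out the dimmest 33.3% of probe sets gave 3 for the Seltzer mean, 0 for Seltzer at 21 days, 2 for CCI minus Seltzer (4), 2 for the Seltzer effect over days (4) and 5 for sham over days (8). Setting values below 200 to 200 gave 0 at 21 days for CCI (1) and for Seltzer, 4 for Seltzer at 50 days (7) and 2 for the Seltzer effect over days. Fitting only the groups compared gave 0 at 21 days for CCI and for Seltzer, and 2 for CCI minus Seltzer. Array weights gave 9 for CCI at 14 days, 7 for the Seltzer effect over days and 13 for sham over days. Adding 1 in place of 16 gave 0 and quantile normalization 2 for Seltzer at 21 days. Without the 50-day arrays the Seltzer mean had 0 and Mmp14 reversed to 0.23. CCI minus Seltzer had 2 at 14 days alone and 1 at 21 days alone, a split chosen after seeing the data. The causes were not tested.

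With the replicate block, which takes the same-numbered arrays as pairs, Seltzer at 21 days had 0 of 23 called. The block also ended the calls of Timp1 for CCI at 14 days and for CCI minus Seltzer; it changed no other count by over 1.5 times. The block was not fitted in the permutation tests of the inhibitors.

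With 1 array left out in turn, the counts ran from 4 to 5 (CCI mean), 2 to 3 (CCI, 14 days), 1 to 1 (CCI, 21 days), 2 to 2 (CCI effect between days), 4 to 7 (Seltzer mean), 0 to 0 (Seltzer, 14 days), 0 to 0 (Seltzer, 21 days), 5 to 6 (Seltzer, 50 days), 3 to 4 (CCI minus Seltzer), 2 to 4 (Seltzer effect over days) and 6 to 9 (sham over days). Over all probe sets the counts ran, in the same order, from 147 to 264, 142 to 193, 57 to 99, 118 to 177 and 247 to 445. The rest ran from 16 to 56, 19 to 56, 660 to 984, 62 to 152, 316 to 597 and 442 to 760. The Timp1 minus Timp2 difference ran from 0.44 to 0.92 (CCI) and from 0.68 to 0.89 (Seltzer; called without Seltzer 14-day replicate 1 or Seltzer 21-day replicate 2). The Timp1 minus Timp3 difference ran from 0.17 to 0.39 (CCI) and from -0.19 to 0.017 (Seltzer). With values below 200 set to 200 that CCI difference was 0.45 (adjusted p = 0.01), which is close to the change of Timp1 alone, since Timp3 was above 200 on 1 of those arrays and is constant on the rest. The Seltzer one was 0.062 after quantile normalization, 0.11 with values below 200 set to 200 and 0.21 without the 50-day arrays, none of them called.

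Over all probe sets the number called ran over the settings from 86 to 518 (CCI mean, 200 as reported), 58 to 784 (CCI, 14 days, 243), 13 to 136 (CCI, 21 days, 81), 91 to 344 (CCI effect between days, 157), 21 to 871 (Seltzer mean, 383), 0 to 66 (Seltzer, 14 days, 18), 0 to 56 (Seltzer, 21 days, 33), 660 to 1798 (Seltzer, 50 days, 1391), 43 to 309 (CCI minus Seltzer, 81), 316 to 959 (Seltzer effect over days, 536) and 442 to 1748 (sham over days, 741). Signal over background limits what can be said of Timp3, Mmp16 and 4 of the 5 Fn1 probe sets, which were above it on no array, and of all probe sets below 599 on the Seltzer arrays of 50 days.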
